A study of Homo sapiens with 6 samples.

Results

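The genes described here are the collagen chains, the laminin chains and the enzymes that modify collagen, chosen by gene symbol, with earlier results of these data known. A gene was a member where a probe set with a single symbol carried the name of a collagen or laminin chain, of a prolyl 3-hydroxylase (P3H), prolyl 4-hydroxylase alpha subunit (P4HA) or lysyl hydroxylase (PLOD), of a lysyl oxidase (LOX, LOXL1 to LOXL4) or of the helper protein CRTAP. Of 72 such symbols 11 were named for a probe set and so measured here, among 14884 genes tested in all. Of 48144 probe sets 32046 had no symbol, and whether the other genes are on the array without a name was not examined. These 11 members were the 4 genes with a P3H symbol, CRTAP, all 5 lysyl oxidases and 1 of 44 collagen chains, COL26A1. The set as measured is thus mainly one of collagen-modifying enzymes and not of chains. The 12 laminin chains, the 3 prolyl 4-hydroxylase alpha subunits and the 3 lysyl hydroxylases had 0 members and were not analysed here. The wording of the membership rule leaves the place of CRTAP uncertain, and it was called in none of the 4 comparisons of the fit reported, so those counts are the same without it.

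RNA was from Caco-2, an established line of human colon carcinoma cells able to differentiate in culture towards enterocytes. Cells infected before confluence with lentivirus for FAM46A-shRNA#2, FAM46A-shRNA#4 or scramble shRNA were sampled 17 days later, with 2 Affymetrix arrays for each of the 3 groups. Both FAM46A hairpins are directed against FAM46A (TENT5A), a non-canonical poly(A) polymerase, and the scramble cells carried a control hairpin from the same kind of virus. All groups therefore share the infection, and the level of FAM46A itself was not analysed here. The labels call the arrays of a group biological replicates without saying what separates them, so each p-value reflects the spread of these 6 arrays alone, which may be technical.

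Collagen chains are hydroxylated on prolines and lysines in the endoplasmic reticulum before the triple helix closes, and are crosslinked by lysyl oxidases after secretion. Prolyl 3-hydroxylases modify a few prolines of each chain, and P3H2 acts mainly on the collagen IV of basement membranes, the sheet on which an intestinal epithelium rests. Loss of FAM46A in people causes a brittle bone disease of the osteogenesis imperfecta group, as does loss of P3H1 or CRTAP. LOX is known as a target of the hypoxia-inducible transcription factors, whose response element has the core ACGTG.

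The promoters of P3H2 and LOX are shown because these genes had the largest changes of the set, in opposite directions. The 250 bases before each start were read from RefSeq (GRCh38.p14, minus strand, chr3:190122279-190122528 and chr3:190120898-190121147 for both P3H2 starts and chr5:122078260-122078509 for the outermost LOX start), with ACGTG on either strand in capitals.
P3H2, outer start: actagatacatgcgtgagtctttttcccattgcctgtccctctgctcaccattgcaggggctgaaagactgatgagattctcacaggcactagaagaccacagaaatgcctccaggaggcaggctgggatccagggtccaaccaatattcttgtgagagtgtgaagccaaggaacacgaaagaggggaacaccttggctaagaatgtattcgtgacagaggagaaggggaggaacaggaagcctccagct
P3H2, inner start: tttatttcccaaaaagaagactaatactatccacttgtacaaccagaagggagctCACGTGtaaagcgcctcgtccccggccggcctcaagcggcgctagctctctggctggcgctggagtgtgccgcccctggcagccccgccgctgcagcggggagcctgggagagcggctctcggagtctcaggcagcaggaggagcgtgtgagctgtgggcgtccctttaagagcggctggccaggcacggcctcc
LOX: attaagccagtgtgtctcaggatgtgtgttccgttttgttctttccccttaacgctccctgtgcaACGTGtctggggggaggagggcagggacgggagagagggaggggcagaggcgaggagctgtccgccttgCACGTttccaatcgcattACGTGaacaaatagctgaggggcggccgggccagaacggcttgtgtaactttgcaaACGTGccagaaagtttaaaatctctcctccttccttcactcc
The LOX window shown held 4 matches, whose first bases lay 185, 116, 98 and 42 bases before the start, and the windows of the other LOX starts held 1 each. The inner P3H2 window held the palindrome CACGTG, which reads as a match on each strand and was counted as 2, and the outer window held 0. Of 35116 RefSeq windows of 300 bases (250 before and 50 after a start) 21.4% held ACGTG and 1.98% held it at least 3 times. Windows were found for 9 of the 11 members, and 2 of the 9, LOX and P3H2, held the core. Counted by window, 4 of the 13 windows of these genes held ACGTG, 0 held TGACTCA (AP-1), 6 held GGGCGG (SP1) and 2 held CCAAT. Those are 30.8%, 0%, 46.2% and 15.4%, against 21.4%, 4.9%, 45.0% and 34.6% of all windows (both strands, and no match overlapped one of ACGTG). The windows with ACGTG include every LOX window. Of these, 2 overlap each other (chr5:122077125-122077424 and chr5:122077174-122077473), so 1 site can count in both. A match describes the letters of the window and not a site in use.

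P3H2 rose with both hairpins and LOX fell with both, each past the spread between replicates, while LOXL3 rose with shRNA#4. Against scramble, with each hairpin weighted equally, P3H2 was 3.79-fold higher, LOX 1.71-fold lower and LOXL3 1.30-fold higher. The other 8 members, among them P3H1, P3H3, P3H4 and the only collagen chain, did not pass the test. The values were deposited by the authors relative to each probe set's median over the 6 arrays and were read as log2, although no source used here states the base. They give differences between groups but no level, so it cannot be said which of the 11 genes were well expressed in Caco-2. In bulk RNA fewer cells of a type and less RNA per cell cannot be told apart. Every member had 1 probe set. Errors after ± are standard errors (SE) of a limma fit over all 14884 genes with n = 2 arrays per group, and a gene was called at a Benjamini-Hochberg adjusted p under 0.05.

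**Figure D1:**
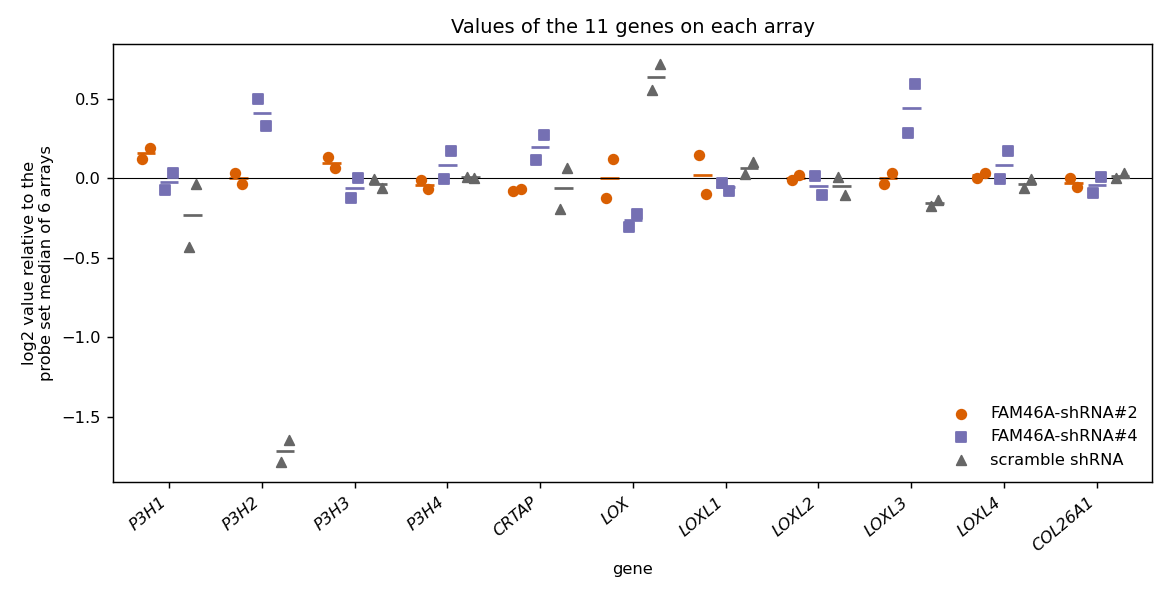
Value of each of the 11 genes on each array (log2, relative to the probe set's median over the 6 arrays), with 2 points per group and a bar at their mean. The scramble arrays of P3H2 lie far below the other 4, those of LOX lie above the other 4, and most other genes have groups that overlap.

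With both hairpins averaged and set against scramble, 2 members rose and 1 fell, 3 of 11 (27.3%), beside 25.4% of all genes called (14.8% higher and 10.6% lower). The median change of the members was 0.052 on the log2 scale, beside 0.0028 over all genes. The share of members called was thus near that of all genes, and P3H2 and LOX had the largest changes of the set. Both were named when the set was chosen, with earlier results of these data known, so their ranks are only a description. P3H2 ranked 3 among the rises of all 14884 genes, and 0.107% of genes had a larger change in either direction. For LOX the share with a larger change was 2.86%, and for LOXL3 it was 13.2%. In 4 members (36.4%) the hairpin arrays were all above or all below the scramble arrays, beside 36.2% of all genes. Against scramble, shRNA#2 had 2 members called, with 21.6% of all genes called, and shRNA#4 had 3, with 26.1% of all genes called. Both comparisons use the same scramble arrays, so they are not independent of each other.

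**Figure D2:**
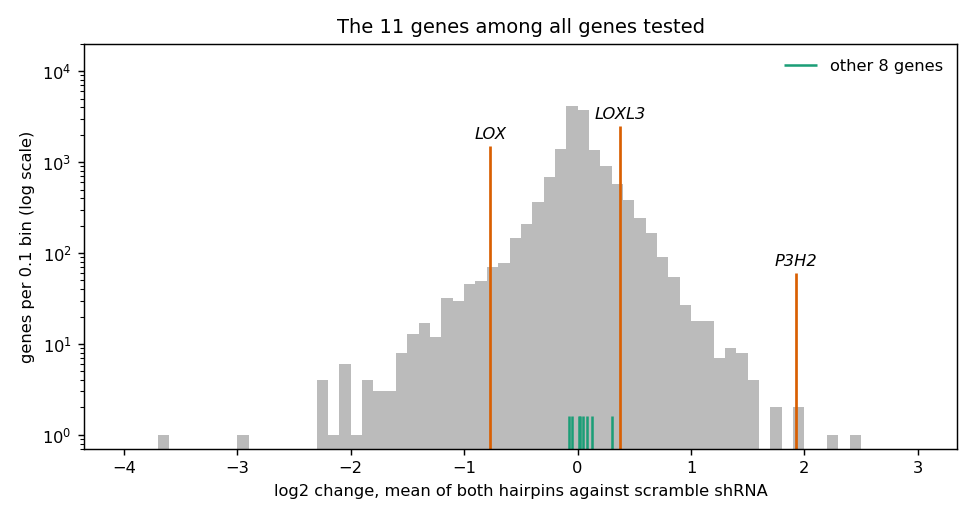
Histogram of the log2 change of all 14884 genes with both hairpins averaged against scramble shRNA, on a log count axis, with the 3 called members as tall lines and the other 8 as short lines. P3H2 at 1.92 lies at the far right edge, LOX at -0.77 in the left flank and LOXL3 at 0.38 in the right flank. The heights of the lines carry no value.

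Among the prolyl 3-hydroxylases, P3H2 stood alone. Its log2 values were 0.035 and -0.035 on the shRNA#2 arrays and 0.50 and 0.33 on the shRNA#4 arrays, against -1.79 and -1.65 on the scramble arrays. The 3 groups did not overlap, and the scramble arrays were the low ones by a wide margin. P3H2 rose by 1.72 ± 0.080 with shRNA#2 (3.29-fold, adjusted p = 0.000298, limma) and by 2.13 ± 0.080 with shRNA#4 (4.38-fold, adjusted p = 0.000229, limma). Averaged over both hairpins the change was 1.92 ± 0.069 (limma adjusted p = 0.000166, 95% interval 1.76 to 2.09). The rise was larger with shRNA#4, since shRNA#2 minus shRNA#4 was -0.41 ± 0.080 (adjusted p = 0.0205, limma). That difference between the hairpins lost its call without replicate 1 of shRNA#2 (adjusted p = 0.0811), replicate 2 of shRNA#2 (0.104) or replicate 1 of shRNA#4 (0.0819), all from limma.

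P3H1 hydroxylates fibrillar collagen in a complex with CRTAP, which has no enzyme activity of its own, and with the prolyl isomerase PPIB. P3H1 had values of 0.12 and 0.19 with shRNA#2 and of -0.074 and 0.035 with shRNA#4, against -0.43 and -0.035 with scramble. The scramble arrays lay 0.396 apart, the widest gap between replicates of any member, and only the shRNA#2 arrays were clear of both of them. The change of P3H1 was 0.30 ± 0.11 for the mean of both hairpins (limma adjusted p = 0.103, 95% interval 0.033 to 0.57). Without replicate 2 of scramble, the higher of that pair, P3H1 was called for the mean (0.50, limma adjusted p = 0.0102) and for each hairpin. Without replicate 1 of scramble the change for the mean was 0.10 (limma adjusted p = 0.425), so the value depends on which scramble array is kept. With replicate number as a block P3H1 was called for the mean (limma adjusted p = 0.0384) and for shRNA#2 (0.0304). CRTAP had values of -0.077 and -0.065 with shRNA#2 and of 0.12 and 0.27 with shRNA#4, against -0.19 and 0.065 with scramble. Its shRNA#4 arrays were the highest and its shRNA#2 arrays lay between the scramble arrays. CRTAP differed by -0.0086 ± 0.097 with shRNA#2 and by 0.26 ± 0.097 with shRNA#4 (limma adjusted p = 0.11), and the second was called without replicate 2 of scramble (limma adjusted p = 0.0332) and was 0.13 without replicate 1 of scramble (0.396). With the replicate block it had a limma adjusted p of 0.0453. PPIB, the other partner in the complex, changed by -0.030 ± 0.076 with shRNA#2 (limma adjusted p = 0.862) and fell by 0.295 ± 0.076 with shRNA#4 (limma adjusted p = 0.0341). Whether the PPIB call holds without single arrays was not examined.

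P3H3 and P3H4, which in mice act together in a complex with a lysyl hydroxylase, moved little. P3H3 had values of 0.14 and 0.063 with shRNA#2 and of -0.12 and 0.0040 with shRNA#4, against -0.0040 and -0.060 with scramble. P3H4 had values of -0.012 and -0.065 with shRNA#2 and of -0.0013 and 0.17 with shRNA#4, against 0.012 and 0.0013 with scramble. In both genes the shRNA#4 arrays overlapped the scramble arrays. For the mean of both hairpins P3H3 changed by 0.052 ± 0.055 (95% interval -0.081 to 0.19) and P3H4 by 0.017 ± 0.060 (95% interval -0.13 to 0.16). These intervals lie far from the change of P3H2 but do not show that either gene is unaltered.

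**Figure D3:**
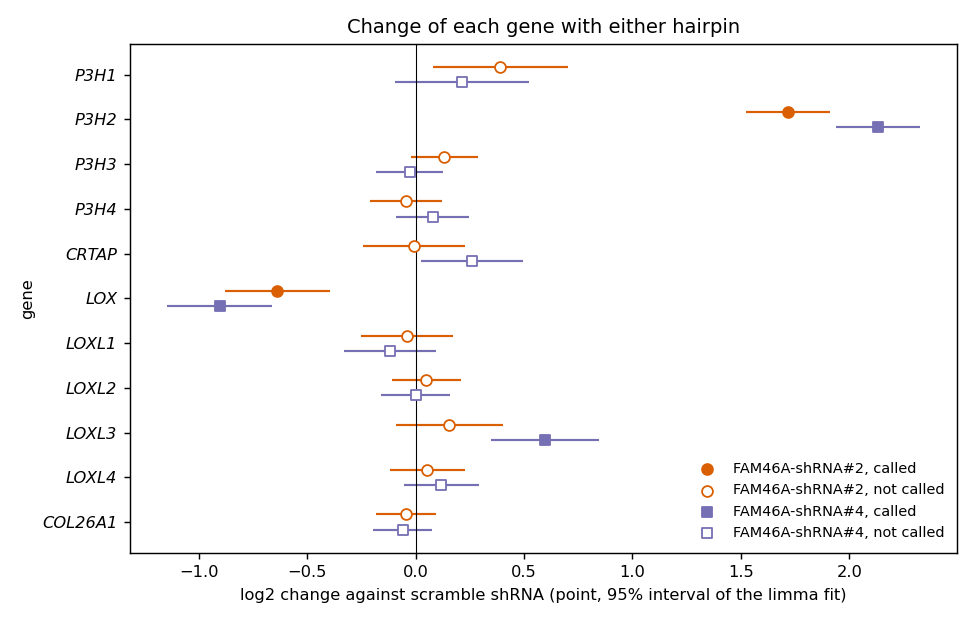
Log2 change of each gene with shRNA#2 and with shRNA#4 against scramble shRNA, as a point with the 95% interval of the limma fit (n = 2 arrays per group), filled where called at an adjusted p under 0.05. Both hairpins give filled points for P3H2 and LOX, only shRNA#4 for LOXL3, and all other points are open.

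LOX, the copper-dependent oxidase that starts crosslinks in collagen and elastin, fell with both hairpins. Its values were -0.12 and 0.12 with shRNA#2 and -0.31 and -0.22 with shRNA#4, against 0.56 and 0.72 with scramble. All 4 hairpin arrays lay below both scramble arrays, and the shRNA#4 arrays were the lowest. LOX fell by 0.64 ± 0.099 with shRNA#2 (1.56-fold, adjusted p = 0.00708, limma) and by 0.90 ± 0.099 with shRNA#4 (1.87-fold, adjusted p = 0.0017, limma). The change for the mean of both hairpins was -0.77 ± 0.086 (limma adjusted p = 0.00178, 95% interval -0.98 to -0.56). The hairpins differed in LOX by 0.26 ± 0.099 (shRNA#2 minus shRNA#4, limma adjusted p = 0.146), which did not pass the test, though it did with the replicate block (0.0362).

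LOXL3, an oxidase with a role in the matrix of the palate and the eye, moved the other way. Its values were -0.034 and 0.034 with shRNA#2 and 0.29 and 0.595 with shRNA#4, against -0.18 and -0.14 with scramble. No groups overlapped, although the shRNA#4 arrays lay 0.308 apart. Of the 6 measured mesenchymal markers, TAGLN and VIM were also highest on the shRNA#4 arrays, while THY1 was lower there than with scramble and DCN, LUM and FBN1 were not called. With shRNA#4 LOXL3 rose by 0.60 ± 0.10 (1.51-fold, adjusted p = 0.00791, limma), and with shRNA#2 it changed by 0.16 ± 0.10 (adjusted p = 0.37, limma). The difference between the hairpins was -0.44 ± 0.10 (shRNA#2 minus shRNA#4, limma adjusted p = 0.0361). The mean of both hairpins, 0.38 ± 0.088 (limma adjusted p = 0.0246), was no longer called without replicate 1 or 2 of scramble (limma adjusted p = 0.127 and 0.0894), without either shRNA#2 array (0.0555 and 0.0694), or with the 4 hairpin arrays as 1 group (0.263). The difference between the hairpins was likewise lost without replicate 1 or 2 of shRNA#2 (limma adjusted p = 0.163 and 0.111), replicate 2 of shRNA#4 (0.0714) or either scramble array (0.0597 each).

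The other lysyl oxidases did not pass the test with either hairpin. LOXL1, which acts on elastic fibres, had values of 0.15 and -0.097 with shRNA#2 and of -0.026 and -0.080 with shRNA#4, against 0.026 and 0.10 with scramble. LOXL2, which crosslinks collagen IV, had values of -0.012 and 0.022 with shRNA#2 and of 0.013 and -0.10 with shRNA#4, against 0.012 and -0.10 with scramble. The groups of both genes overlapped. LOXL4 had values of 0.0039 and 0.037 with shRNA#2 and of -0.0039 and 0.17 with shRNA#4, against -0.062 and -0.0051 with scramble. Its hairpin arrays all lay above the scramble arrays, but by a margin far smaller than the gap between its replicates. For the mean of both hairpins the 95% intervals ran from -0.26 to 0.11 for LOXL1, from -0.11 to 0.16 for LOXL2 and from -0.063 to 0.24 for LOXL4. LOX thus fell by more than any change these intervals hold for its 3 relatives.

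COL26A1, a collagen described mainly in mouse testis and ovary, had values of 0 and -0.056 with shRNA#2 and of -0.093 and 0.0069 with shRNA#4, against 0 and 0.034 with scramble. The groups overlapped. Its change was -0.052 ± 0.049 for the mean of both hairpins (limma adjusted p = 0.54, 95% interval -0.17 to 0.067). A single chain, whose level is unknown here, gives no comparison of chains with enzymes beyond its own values. For the mean of both hairpins 3 of the 10 other members were called (30%) and 0 of the 1 chain, beside 25.4% of all genes. The unadjusted p of COL26A1 was 0.323 (limma).

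Between the hairpins themselves 2 of 11 members were called, P3H2 and LOXL3, both lower with shRNA#2 than with shRNA#4, beside 15.3% of all genes called. The shRNA#2 arrays lay on one side of both shRNA#4 arrays for 7 members (63.6%), beside 54.5% of all genes. CRTAP, LOX and P3H3 had unadjusted p-values of 0.0323, 0.0367 and 0.0457 in this comparison, and their adjusted values were 0.134 to 0.168 (limma).

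The genes that make, carry or bind the same matrix were followed in lists chosen with earlier results of these data known. Of 20 measured basement membrane partners and matrix glycoproteins, 7 rose and 5 fell for the mean of both hairpins, 60% beside 25.4% of all genes, with a median of 0.067 beside 0.0028. The nidogens NID2 and NID1, which bridge laminin and collagen IV, rose by 0.66 ± 0.073 and 0.42 ± 0.089. FRAS1 fell by 1.15 ± 0.050 while its partner FREM2 rose by 1.17 ± 0.074, and these proteins form a complex at epithelial basement membranes. The netrin NTN4, which binds laminin, fell by 0.56 ± 0.0745, and the adhesive glycoprotein THBS1 rose by 1.19 ± 0.13. NID2 was high mainly with shRNA#2, at 0.81 and 1.05 on the shRNA#2 arrays and 0.025 and -0.025 on the shRNA#4 arrays, against -0.15 and -0.23 on the scramble arrays. With the 4 hairpin arrays as 1 group NID2, NID1, NTN4 and THBS1 were no longer called, and the call of NID1 also ended without replicate 1 of shRNA#2 or either scramble array. Of 15 listed receptors of collagen and laminin 4 were measured, and 0 were called in any of the 4 comparisons (limma), beside 15.3% to 26.1% of all genes. For the mean 2 had an unadjusted p under 0.05, and the median was -0.125. BCAM came closest to a call there (-0.33 ± 0.095, limma adjusted p = 0.0517).

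In the steps of collagen handling, 1 of 6 measured genes of folding, glycosylation and export rose and 1 fell for the mean of both hairpins, 33.3% beside 25.4% of all genes, with a median of 0.0039. KLHL12, a ubiquitin ligase adaptor for the large vesicles that carry procollagen, rose by 0.56 ± 0.0725, and the coat protein SEC23A fell by 0.28 ± 0.044. Of 6 measured genes of procollagen processing 2 fell and 0 rose, also 33.3%, with a median of -0.025. The falls were in BMP1, the protease that trims procollagen and activates LOX (-0.22 ± 0.062, limma adjusted p = 0.0483), and its relative TLL2 (-0.16 ± 0.0405, adjusted p = 0.0347). The BMP1 call ended under 13 of 15 alternatives and that of TLL2 under 8 of 15, among them leaving out either scramble array. TLL1, chosen after its values were seen, had the largest change of this list and went the other way (0.58 ± 0.17, limma adjusted p = 0.0537), and it was called with shRNA#4 (0.68, limma adjusted p = 0.0484). That call was not examined under the alternatives, and the shRNA#4 arrays of TLL1 were at 0.54 and 0.13. SEC23A was no longer called with the 4 hairpin arrays as 1 group. Among the genes of folding, glycosylation and export, 2 rose and 2 fell with shRNA#4, 66.7% beside 26.1% of all genes. With shRNA#2 1 of them rose and 0 fell, 16.7% beside 21.6% of all genes.

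Genes known to respond to hypoxia were listed because LOX belongs to that group, and with earlier results of these data known. The share of this list that was called is therefore only a description. Of 11 measured, 2 rose and 3 fell for the mean of both hairpins, 45.5% beside 25.4% of all genes, with a median of -0.061. NDRG1, a stress-responsive gene, fell by 1.35 ± 0.16, the mitophagy receptor BNIP3 by 1.06 ± 0.063 and the glycolytic enzyme PGK1 by 0.47 ± 0.074. The hexokinase HK1 rose by 0.75 ± 0.066 and ADM, the vasodilator peptide adrenomedullin, by 0.35 ± 0.041. The other 6, VEGFA, HK2, EGLN3, LDHA, KDM3A and ANKRD37, were not called for the mean. Like LOX, NDRG1, BNIP3 and PGK1 were lowest on the shRNA#4 arrays, with BNIP3 at 0.061 and -0.061 with shRNA#2 and -0.51 and -0.36 with shRNA#4, against 0.82 and 0.87 with scramble. The list moved in both directions, and the part of hypoxia in the fall of LOX was not tested. PGK1 lost its call with the 4 hairpin arrays as 1 group.

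**Figure D4:**
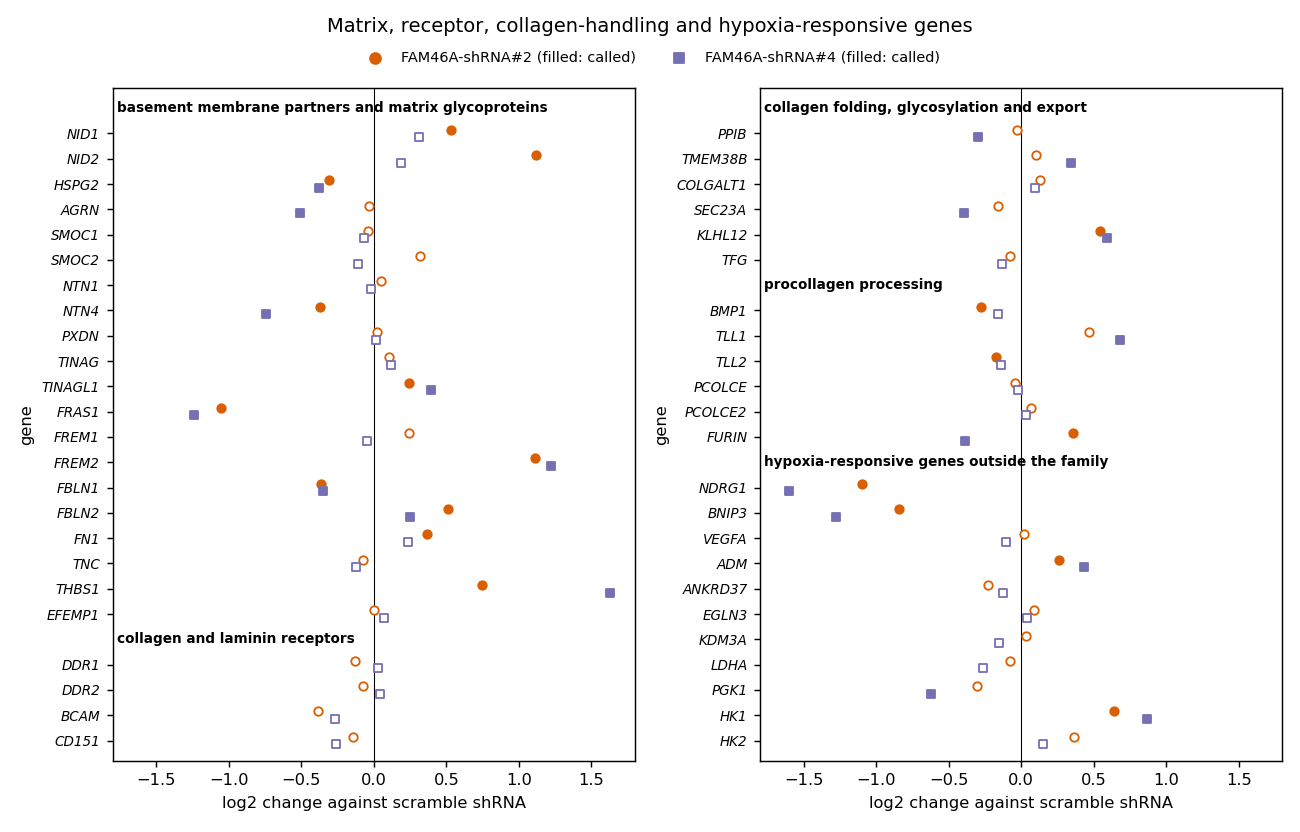
Log2 change with shRNA#2 and with shRNA#4 against scramble shRNA for every measured gene of 5 lists (n = 2 arrays per group). The lists are of matrix, receptor, collagen export, procollagen processing and hypoxia-responsive genes. Points are filled where called at a limma adjusted p under 0.05. FREM2 and THBS1 lie far to the right with both hairpins, and FRAS1 and the hypoxia-responsive genes NDRG1 and BNIP3 far to the left. None of the 4 measured receptors has a filled point, while of 6 folding, glycosylation and export genes 4 are filled with shRNA#4 and 1 with shRNA#2.

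Markers of cell types were examined as changes, since centred values cannot show whether a marker is present. Of 6 measured epithelial markers 3 fell and 0 rose for the mean of both hairpins, 50% beside 25.4% of all genes, led by VIL1 of the brush border (-0.61 ± 0.059). The other falls, in EPCAM and CDX2, lost their calls under 8 and 7 of 15 alternatives, and KRT18 went the other way, at 0.30 ± 0.107 for the mean (limma adjusted p = 0.0962) and 0.49 with shRNA#4, where it was called (limma adjusted p = 0.0315). The KRT18 call was not examined under those alternatives. Of 6 measured fibroblast and mesenchymal markers 2 rose and 1 fell, VIM (0.28 ± 0.048), TAGLN (0.44 ± 0.055) and THY1 (-0.20 ± 0.044). The mean value of this list was -0.040 and 0.023 on the shRNA#2 arrays and 0.198 and 0.218 on the shRNA#4 arrays, against -0.035 and 0.0033 on the scramble arrays. The high mean with shRNA#4 rests mostly on TAGLN, at 1.11 and 1.12 on those arrays, and the median change of the list with shRNA#4 was 0.028. TAGLN changed by -0.23 with shRNA#2 and rose by 1.11 with shRNA#4, so its mean describes neither hairpin, and with the 4 hairpin arrays as 1 group neither TAGLN (limma adjusted p = 0.67) nor VIM was called. Of 3 measured endothelial markers 0 were called (limma), and 0 had an unadjusted p under 0.05. The part of these markers in the changes of P3H2, LOX and LOXL3 was not tested. The calls of VIM and THY1 ended without replicate 1 of scramble, and that of THY1 also without replicate 2 of scramble, either shRNA#2 array or replicate 2 of shRNA#4.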

How the data were processed

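RNA of 6 Caco-2 samples was measured on single-channel Affymetrix arrays, prepared from 100 ng with the WT PLUS kit per the labels' protocols. The authors deposited 1 table for 48144 probe sets, with values from -2.65 to 3.53 that were assumed to be log2. That each probe set is centred on its median (within 1e-06 of 0) was read from the values. The sources used here give neither summarisation, normalization nor log base, and dim probe sets could not be filtered.

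Through Entrez IDs of the platform table, 16098 probe sets had 1 symbol, 0 several and 32046 none. Probe sets of a gene were averaged, giving 14884 genes. Groups came from the sample titles. One limma 3.58.1 fit (R 4.3.3) of 3 group means, with eBayes without trend (3 residual and 3.09 prior degrees of freedom), gave 4 two-sided comparisons, each Benjamini-Hochberg adjusted over all genes. Intervals are 95% and cover the spread between arrays. The number of arrays limits precision, and depth has no meaning here. The fit was tested on simulated data. Members, lists and motifs were chosen with earlier results of these data known. Named were all members, and list genes called for the mean of both hairpins, up to 6 a list by size. Markers called were named. PPIB, TLL1 and KRT18 were named after their values were seen. Deviations of same-numbered arrays from their group means correlated at 0.119 to 0.199 in all 3 pairs of groups, while the labels do not say what a number shares, so calls that a replicate block changes are given beside the result. Alternatives were quantile normalization, array centring, a replicate block, array weights, robust variances, single probe sets, all probe sets, only the arrays compared, 1 hairpin group, a stricter threshold, CRTAP left out and each array left out. An alternative for linear intensities did not apply. Promoters are RefSeq windows on GRCh38.p14. Python 3.11.15 with pandas 2.3.3 searched motifs, and matplotlib 3.10.9 drew figures.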

Additional observations from a re-analysis of the deposited data

Results flagged for a closer look

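With groups of 2, outlying arrays were not tested. A called difference between the hairpins themselves (shRNA#2 minus shRNA#4, log2, limma) was found in 11 of the 73 members, list genes and markers, 15.1% beside 15.3% of all genes. Among members these were P3H2 (-0.41, adjusted p = 0.0205) and LOXL3 (-0.44, 0.0361), which rose more with shRNA#4. FURIN, a convertase that activates proproteins, went opposite ways, at 0.35 with shRNA#2 and -0.39 with shRNA#4 (difference 0.74). TAGLN differed by -1.34, THBS1 by -0.89 and VIM by -0.28, all higher with shRNA#4. NID2 differed by 0.93, AGRN by 0.47, BNIP3 by 0.43, NTN4 by 0.37 and SEC23A by 0.23, all higher with shRNA#2.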

How the results depend on the processing

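The rises of P3H2 and the falls of LOX, for the mean and for each hairpin, and the rise of LOXL3 with shRNA#4 were called under all 15 alternatives that gave a value. P3H2 ran from 1.68 to 1.99 for the mean, LOX from -0.85 to -0.63, and LOXL3 with shRNA#4 from 0.44 to 0.75. These alternatives overlap. For a single hairpin, leaving out either array of the other hairpin gave the same fit as using only the arrays compared. The stricter threshold kept the fit reported, and with 1 probe set per member both probe set alternatives left each change as it was. Of 660 recomputed changes of single members 633 kept their call or lack of one, 19 lost a call, 8 gained one and 0 called changes reversed. Among the 633, 18 that were called under neither setting changed sign. Leaving out each array in turn gave 2 to 3 called members for the mean, 2 to 3 for shRNA#2, 3 to 5 for shRNA#4 (5 without replicate 2 of scramble, adding P3H1 and CRTAP) and 0 to 1 between the hairpins. Between the hairpins, 1 member was called with all probe sets in the fit, 1 with only the arrays compared, and 0 at an adjusted p under 0.01 (5 had an unadjusted p under 0.05). Without either shRNA#2 array 0 were called there (limma), with 3 at an unadjusted p under 0.05. With replicate number as a block, 4 members were called for the mean (P3H1 added), 3 for shRNA#2 (P3H1), 4 for shRNA#4 (CRTAP) and 3 between the hairpins (LOX). The block changed no other call of a member, and it ended no call for the mean among the named list genes.

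All genes called fell to 1756 with the 4 hairpin arrays as 1 group and to 2158 at an adjusted p under 0.01 for the mean (3784 in the fit reported), and leaving out an array gave 2477 to 3358. The stricter threshold gave 1575 for shRNA#2 (3220), 2122 for shRNA#4 (3884) and 769 between the hairpins (2272), and leaving out an array gave 1756 to 2982, 2677 to 3476 and 761 to 2166. Of the 21 list genes and markers named for a call of the mean, 8 kept that call under all alternatives. Calls of list genes and markers for a single hairpin or between the hairpins, such as those of PPIB, TLL1, KRT18, FURIN and AGRN, were not examined under them. The call of EPCAM, CDX2 and THY1 ended under 8, 7 and 6 of 15, and that of VIM under 2. The cause of these changes was not tested. Scaling moved the median of all genes by under 0.01, and the signal over background was not analysed here.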

Other observations

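Antisense genes of the families had probe sets of their own, LOXL1-AS1, LOXL2-AS1, COL4A2-AS1, COL18A1-AS1 and COL18A1-AS2, and none of these 5 was called in any comparison (limma). Their changes for the mean of both hairpins ran from -0.14 for COL18A1-AS1 to 0.048 for LOXL1-AS1, and 0 of the 5 had an unadjusted p under 0.05.

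Genes next to the members were looked up in RefSeq gene order after the values were seen. Of 22 adjacent protein-coding genes 14 were measured, and 2 rose and 4 fell for the mean of both hairpins, 42.9% beside 25.4% of all genes. CLDN16, a claudin gene 168083 bases away from P3H2, fell by 0.95 ± 0.12 while P3H2 rose. The claudin gene CLDN19, 6138 bases away from P3H1, fell by 0.64 ± 0.107. SRFBP1, annotated as overlapping LOX, rose by 0.30 ± 0.051 for the mean, but changed by 0.07 with shRNA#2 and 0.54 with shRNA#4, while LOX fell with both. Called neighbours also stood beside other members that were not called. These were GPR162 beside P3H3 (-0.61 ± 0.066), STOML1 beside LOXL1 (-0.19 ± 0.044) and ENTPD4 beside LOXL2 (0.50 ± 0.044). LOXL3 likewise overlaps its neighbours HTRA2 (-0.18 ± 0.051, limma adjusted p = 0.0502) and DOK1, and whether probe sets of overlapping genes share sequence was not analysed here.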
